A study of Malus domestica with 6 samples.

Results

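MYB transcription factors bind DNA through a repeated helix-turn-helix domain and form a large family of plant regulators of cell walls, lipids and pigments. The genes described here are 7 MYB gene models of apple (Malus domestica) among the 1261 gene models of the authors' table, chosen by identifier and by the symbol of their Arabidopsis match: MYB93 in copies MDP0000320772 (copy 1) and MDP0000228252 (copy 2), MYB67 (MDP0000157506), MYB52 (MDP0000852158), MYB94 (MDP0000149535), MYB42 (MDP0000787808) and MYB68 (MDP0000812430). They were measured by RNA sequencing of fruit exocarp, the outer skin, of 6 apple varieties. The 3 fully russeted varieties, whose skin is corky, were Patte de Loup, Reinette Parmentier and St Edmund's Pippin. The 3 fully waxy varieties, whose skin is smooth, were AG94, AF42 and Gala. Each variety gave 1 library from peeled slices, so the n of 3 per phenotype counts varieties and no variety had a replicate. Skin type and all else that separates the 2 sets of varieties cannot be told apart.

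Cork cells carry suberin, a polymer of fatty acids, glycerol and phenolic units laid down inside the wall, whereas the epidermis of a smooth fruit is covered by a cuticle of cutin and wax. Both kinds of polymer draw on fatty acids that are elongated, hydroxylated at their end and joined to glycerol, by related but separate enzymes. In Nicotiana benthamiana leaves, apple MYB93 is known to switch on suberin synthesis, and in Arabidopsis MYB94 is an activator of wax genes. MYB42 and MYB52 belong to the Arabidopsis network of secondary wall genes, MYB52 also acts on the pectin of seed mucilage, and MYB68 is a root gene that affects lignin.

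The libraries had 9441891 to 19050536 mapped reads, and the listed genes held 4.71% to 9.73% of them. The members and the table itself had been selected on the difference between russeted and waxy exocarp, so the fold changes of the members are given as a description without a test. A level is in RPKM, reads scaled to coding length and to mapped reads, which can be set side by side between genes. Intervals in brackets are exact 95% Poisson intervals, which cover counting error only; PCR reads carry no molecular identifiers. In whole skin, fewer cells of a type and less RNA per cell cannot be told apart. Of the vascular marker genes, 4 phloem protein 2 genes were listed, and 2 of the 4 passed the test as higher in russeted exocarp, against 19.2% of all genes tested; their summed level was 50.3 to 102 RPKM in russeted and 15.0 to 30.6 RPKM in waxy varieties. Their part in the results below was not tested. The 3 listed photosystem genes, markers of green tissue, had a summed level of 111 to 169 RPKM in russeted and 260 to 394 RPKM in waxy varieties, and 0 of the 3 passed.

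MYB93, MYB67 and MYB52 were higher in the russeted varieties, and MYB94, MYB42 and MYB68 in the waxy ones. None of the 7 overlapped between phenotypes, but the same held for 87.5% of the 1261 listed genes. With edgeR's quasi-likelihood test at an adjusted p under 0.05, 7 members passed (against 28.5% of the 1246 genes tested), 4 of them higher (against 19.2%) and 3 lower (against 9.31%). With TMM factors 5 passed (not MYB93 copy 2 or MYB52), against 27.3% of all genes. That contrast chose them, so nothing is read from these counts. Without St Edmund's Pippin 4 members passed (not MYB52, MYB42 or MYB68), without Reinette Parmentier 5 (not MYB52 or MYB68), without Patte de Loup 5 (not MYB42 or MYB68), and without AG94, AF42 or Gala 6 (not MYB68).

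**Figure D1:**
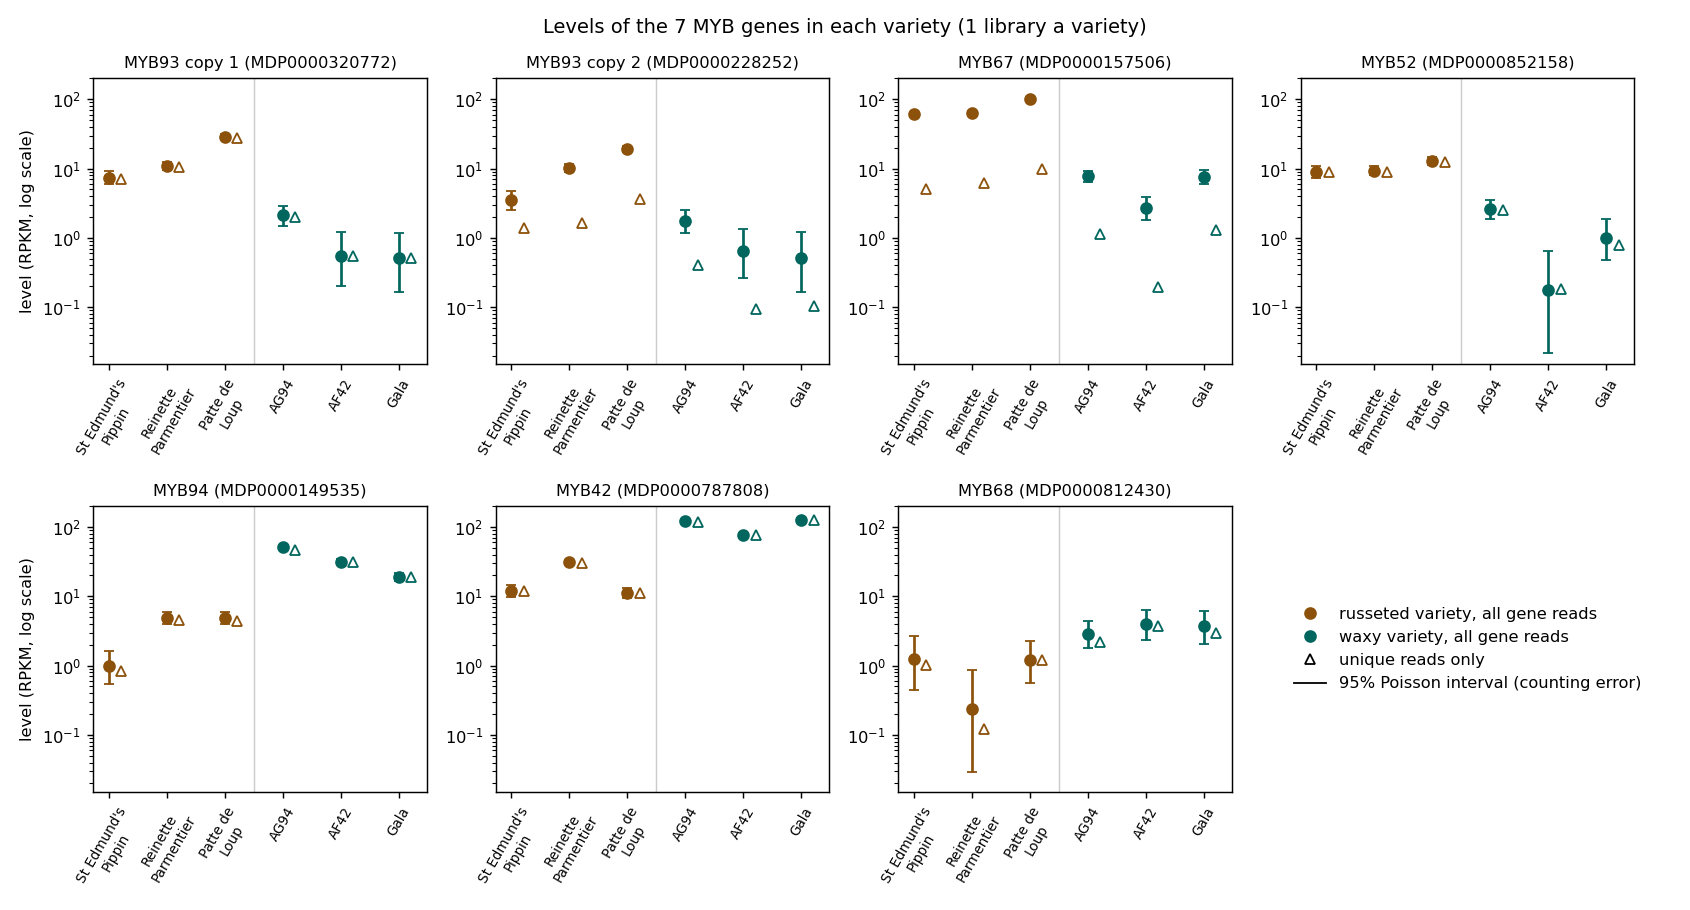
Level of each of the 7 MYB genes (RPKM, log scale) in the 3 russeted and 3 waxy varieties, 1 library a variety; filled points count all gene reads, with 95% Poisson intervals, and open triangles count unique reads only. The phenotypes do not overlap in any panel, and in MYB67 and MYB93 copy 2 the unique reads lie far below all reads.

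MYB93 copy 1 stood at 28.8 RPKM (26.3 to 31.4) in Patte de Loup, 10.9 RPKM (9.47 to 12.4) in Reinette Parmentier and 7.40 RPKM (5.93 to 9.13) in St Edmund's Pippin. In the waxy varieties it stood at 2.13 RPKM in AG94 (37 reads), 0.55 RPKM (0.202 to 1.20) in AF42 and 0.51 RPKM (0.166 to 1.19) in Gala. The 3 russeted varieties were thus separated from each other beyond counting error, AG94 stood above the other waxy varieties, and AF42 and Gala, with 6 and 5 reads, could not be told apart. The russeted mean was 15.7 ± 11.5 RPKM (SD, n = 3) and the waxy mean 1.06 ± 0.924 RPKM (n = 3), with a log2 fold change, russeted over waxy, of 3.82 ± 0.73 (SE). The gap between the nearest varieties of the phenotypes, St Edmund's Pippin and AG94, was 3.47-fold.

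MYB93 copy 2 had the same order, with 19.3, 10.3 and 3.53 RPKM in Patte de Loup, Reinette Parmentier and St Edmund's Pippin and 1.74, 0.65 and 0.52 RPKM in AG94, AF42 and Gala. Among its waxy varieties the counting interval of AF42 overlapped those of Gala and AG94. The log2 fold change of copy 2 was 3.45 ± 0.72 (SE). This copy is the less certain of the pair, since only 19.6% of its reads were unique to it, against 96.1% in copy 1. Over the 6 libraries 502 reads of copy 2 and 34 reads of copy 1 were not unique. These counts do not tell which gene models share the reads of copy 2. On unique reads alone the log2 fold change of copy 2 was 3.27 ± 0.65, and that of copy 1 was 3.81 ± 0.73. The 3 russeted varieties kept their order in both copies on unique reads, while AF42 and Gala had 1 unique read each in copy 2. In that copy St Edmund's Pippin and Reinette Parmentier lay close on unique reads, at 1.38 and 1.64 RPKM. Those levels come from 16 and 32 reads, so the order of these varieties is weakly fixed there.

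The suberin list holds genes that make or export suberin precursors, and 9 of them were in the table. Of these, 8 rose in russeted exocarp (against 19.2% of all genes tested), 0 fell and 1, KCS2, did not pass; the median log2 fold change of the list was 3.18, against 1.19 over all genes tested. The list comes from a table selected on these libraries, so the count is not independent evidence of a direction. With TMM factors 2 rose and 1 fell, where 3.53% of all genes rose and 23.8% fell. Without Reinette Parmentier, Patte de Loup or AF42, 5 rose.

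Within the phenotypes, the suberin list and MYB93 largely followed the same order of varieties. All 9 suberin genes, KCS2 included, ran from St Edmund's Pippin through Reinette Parmentier to Patte de Loup as both MYB93 copies did, an order that 21.7% of all listed genes had. This russeted order was also that of MYB67, MYB52 and MYB94, so 5 of the 7 members had it and it is not particular to MYB93. AG94 was the highest waxy variety in all 9 suberin genes, against 34.5% of all listed genes. The full waxy order of MYB93 copy 1, Gala under AF42 under AG94, was shared by 7 of the 9 and by 18.3% of all listed genes; AF42 and Gala rest on few reads in MYB93. The 9 genes and the varieties share their libraries, so these counts describe 6 libraries and carry no p. The summed phloem protein 2 level had the same order in the russeted varieties (102, 70.0 and 50.3 RPKM from Patte de Loup down), but in the waxy varieties it was lowest in AG94 (15.0 RPKM) and stood at 30.6 RPKM in AF42 and 19.96 RPKM in Gala.

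GPAT5 (MDP0000150502), the acyltransferase that joins suberin fatty acids to glycerol, was the suberin gene nearest to MYB93 copy 1. It stood at 45.9, 21.5 and 13.5 RPKM in Patte de Loup, Reinette Parmentier and St Edmund's Pippin and at 3.14, 1.08 and 0.49 RPKM in AG94, AF42 and Gala. MYB93 copy 1 ranged 56.4-fold over the 6 varieties and GPAT5 93.6-fold. The ratio of the GPAT5 level to the MYB93 level stayed between 0.961 (Gala) and 1.98 (Reinette Parmentier). Both spans include the difference between phenotypes on which the genes were selected. Likeness in such ratios over the 6 varieties, here and below, therefore partly restates that selection. Within the russeted varieties MYB93 copy 1 ranged 3.89-fold, and within the waxy varieties 4.18-fold. CYP86A1, which hydroxylates the end of fatty acids for suberin, had 2 copies: MDP0000923760 stood at 1.33 to 4.32 times the level of MYB93 copy 1, and MDP0000879217 at 2.17 to 7.96 times. CYP86B1, which hydroxylates very long chains, stood at 0.40 to 1.96 times that level in MDP0000306273 and at 1.07 to 5.53 times in MDP0000234292.

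Some suberin genes parted from MYB93 in 1 phenotype or the other. The HXXXD-type acyltransferase gene MDP0000312405, matched to the Arabidopsis gene AT5G41040 that attaches ferulate to suberin, had 215 RPKM in Patte de Loup, 171 RPKM in Reinette Parmentier and 25.7 RPKM in St Edmund's Pippin. In AG94 it had 27.6 RPKM, above St Edmund's Pippin, so the phenotypes overlapped in this gene although they did not in MYB93. KCS2 (MDP0000625646), which elongates fatty acids for both suberin and wax, had 83.6, 52.4 and 17.3 RPKM in the russeted varieties in the same order and 201, 176 and 91.7 RPKM in AG94, AF42 and Gala. KCS2 thus shared the order of MYB93 within each phenotype but lay on the other side between them, with a log2 fold change of -1.61 ± 0.63 (SE, edgeR adjusted p = 0.182). The ABC-2 type transporter genes of the list were MDP0000265619, at 0.819 to 5.07 times the MYB93 copy 1 level, and MDP0000241976, at 1.47 to 4.45 times, of whose reads 15.5% were unique.

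**Figure D2:**
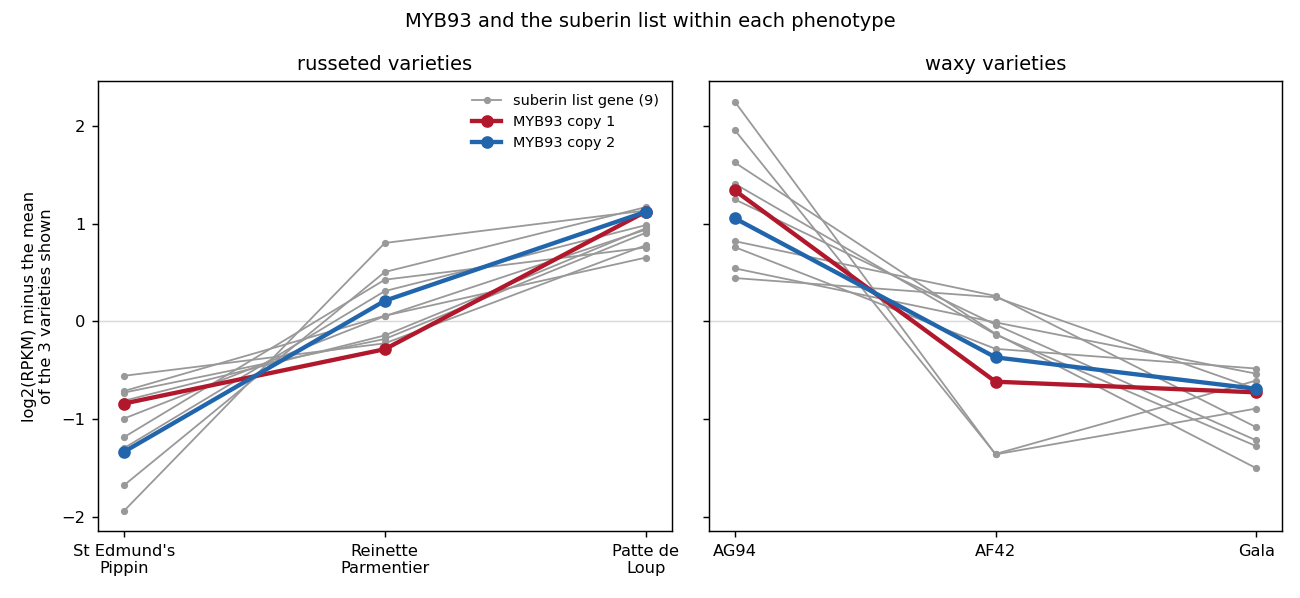
Log2(RPKM) of the MYB93 copies (coloured) and the 9 suberin list genes (grey) in each variety, minus the gene's mean over the 3 varieties of that phenotype; lines join the values of a gene and the varieties have no natural order. All 9 suberin genes are lowest in St Edmund's Pippin and highest in Patte de Loup, and all 9 are highest in AG94 among waxy varieties.

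A second measure of likeness used the whole profile: the root mean square difference (RMS, in log2 units) between 2 genes over the 6 varieties, each centred on its own mean. Compared were the 797 described genes, less the member itself where it was one of them, with a mean of at least 20 reads a library and at least 50% unique reads. Nearest to MYB93 copy 1 were NAC038 (MDP0000232008, RMS 0.32), a transcription factor of the NAC family, GPAT5 (RMS 0.36) and a cupredoxin gene (MDP0000185485, RMS 0.44). The median RMS over the compared genes was 1.69. When profiles were instead centred within each phenotype, a choice added after seeing the data, so that the difference between phenotypes did not enter, NAC058 (MDP0000130785, RMS 0.27) came first, before NAC038 (0.31) and GPAT5 (0.31). On that scale 8 of the 9 suberin genes stood as near to copy 1 as the nearest 10% of the compared genes, the transporter gene MDP0000241976 on mostly shared reads, with a median RMS of 0.50 against 0.98 over the compared genes, and the acyltransferase gene MDP0000312405 was the exception, with 13.2% of the compared genes nearer than it. For copy 2 the nearest genes were a terpenoid cyclase gene (MDP0000207731, RMS 0.29), OFP16 (MDP0000410437, 0.33) and a GDSL-type lipase gene (MDP0000660239, 0.37). On unique reads 0 of these 3 were among its 3 nearest, which were copy 1 (RMS 0.22), NAC038 (0.23) and NAC075 (MDP0000618650, 0.44).

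Counting all reads, MYB67 was the most abundant member in russeted exocarp. It stood at 101 RPKM in Patte de Loup, 63.1 RPKM in Reinette Parmentier and 60.4 RPKM in St Edmund's Pippin, against 7.74, 2.71 and 7.62 RPKM in AG94, AF42 and Gala. The gap between its nearest varieties of the phenotypes, St Edmund's Pippin and AG94, was 7.80-fold on all reads. St Edmund's Pippin and Reinette Parmentier had overlapping counting intervals, as had Gala and AG94. The log2 fold change was 3.63 ± 0.57 (SE).

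Most of this signal was in reads that fit more than 1 gene. Of 3801 MYB67 reads, 372 (9.79%) were unique, and no other gene of the table carried the symbol MYB67. On unique reads alone MYB67 stood at 9.73, 6.22 and 5.10 RPKM in the russeted varieties in the same order and at 1.15, 0.193 and 1.29 RPKM in AG94, AF42 and Gala, the AF42 value being 2 reads. Its russeted mean on unique reads, 7.02 RPKM, lay below those of MYB42 (17.9 RPKM), MYB93 copy 1 (15.1 RPKM) and MYB52 (10.1 RPKM). The log2 fold change on unique reads was 2.98 ± 0.66. Neither scale gives a firm level for this gene, since the part of its coding sequence that can yield unique reads is not known, but the phenotypes did not overlap on either.

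MYB67 was nearest to NAC038 (RMS 0.42), a VQ motif gene (MDP0000182830, 0.47) and a SAUR-like auxin-responsive gene (MDP0000848515, 0.50). None of these 3 was among its 3 nearest genes on unique reads, so its likeness to other genes depends on the shared reads. Of the lignin genes, 2 of 11 shared its russeted order (21.7% of all listed genes did) and 1 of 11 its waxy order (15.6% of all).

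MYB52 was even across the russeted varieties, with 12.9 RPKM (11.3 to 14.7) in Patte de Loup, 9.35 RPKM (8.06 to 10.8) in Reinette Parmentier and 9.03 RPKM (7.41 to 10.9) in St Edmund's Pippin. It was uneven across the waxy varieties, with 2.60 RPKM (1.90 to 3.47) in AG94, 0.18 RPKM (0.0219 to 0.652) in AF42 and 1.00 RPKM (0.481 to 1.84) in Gala. The range was 1.43-fold within russeted and 14.4-fold within waxy exocarp, where the AF42 value was 2 reads. The log2 fold change was 2.99 ± 0.71 (SE), and 96.4% of the reads were unique. The other MYB52 gene in the table, MDP0000291518, differed in pattern: it had 10.5 RPKM in Patte de Loup, 11.7 RPKM in Reinette Parmentier and 2.64 RPKM in St Edmund's Pippin, and its phenotypes overlapped, with 2.79 RPKM in AG94 (log2 fold change 2.37 ± 0.69, edgeR adjusted p = 0.0577).

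The polysaccharide and pectin genes set beside MYB52 mostly did not pass the test. Lignin genes were also set beside MYB52, and their calls are given with MYB42 below. Of 11 lignin genes, 2 shared the russeted order of MYB52 and 1 its waxy order, against 21.7% and 15.6% of all listed genes. The secondary wall polysaccharide list had 1 cellulose synthase gene in the table, CESA6 (MDP0000480237), a subunit of primary wall synthesis, at 5.58 to 9.98 RPKM in russeted and 3.73 to 3.79 RPKM in waxy varieties (edgeR adjusted p = 0.271). The cellulose synthases of secondary walls, CESA4, CESA7 and CESA8, were represented by 0 listed genes. CCR1, a lignin gene, had entered that list through its older symbol. Of 9 pectin genes 1 rose, the pectin acetylesterase family gene MDP0000756536, which removes acetyl groups from pectin (edgeR adjusted p = 0.0418), against 19.2% of all genes tested; 13.3% of its reads were unique. Without any 1 of the russeted varieties, and with TMM factors, 0 rose. The median log2 fold change of the pectin list was 1.61, against 1.19 over all genes tested, and 3 of the 9 shared the russeted order of MYB52 and 1 its waxy order, against 21.7% and 15.6% of all listed genes.

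MYB52 was nearest to MEE32 (MDP0000189326, RMS 0.28), which encodes a double enzyme of the shikimate pathway that supplies phenylpropanoids. MEE32 stood at 10.6, 10.2 and 10.7 RPKM in Patte de Loup, Reinette Parmentier and St Edmund's Pippin and at 2.59, 0.28 and 1.25 RPKM in AG94, AF42 and Gala. A histone gene (MDP0000332388, 0.41) and the bHLH gene EGL3 (MDP0000309179, 0.65) came next. All 3 shared with MYB52 a very low level in AF42, between 0.17 and 0.28 RPKM, which the 2 MYB52 reads in that library fix only loosely.

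MYB94, the activator of wax genes in Arabidopsis, was higher in waxy exocarp. It stood at 51.6 RPKM (48.5 to 54.7) in AG94, 30.9 RPKM (27.9 to 34.0) in AF42 and 18.8 RPKM (16.4 to 21.4) in Gala. In the russeted varieties it stood at 4.91 RPKM (4.02 to 5.94) in Patte de Loup, 4.89 RPKM (4.04 to 5.86) in Reinette Parmentier and 0.98 RPKM (0.538 to 1.65) in St Edmund's Pippin. All 3 waxy varieties were separated beyond counting error, and of the russeted varieties St Edmund's Pippin stood below the other 2, which could not be told apart. The russeted mean was 3.59 ± 2.26 RPKM and the waxy mean 33.7 ± 16.6 RPKM (SD, n = 3), the log2 fold change was -3.22 ± 0.63 (SE), and 93.5% of the reads were unique. Set against its waxy mean, MYB94 was at 14.6% in Patte de Loup, 14.5% in Reinette Parmentier and 2.90% in St Edmund's Pippin.

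Of 13 wax genes listed, 10 fell in russeted exocarp (against 9.31% of all genes tested), 0 rose and 3, CER3, KCS2 and 1 copy of CER10, did not pass; with TMM factors all 13 fell, against 23.8% of all genes. The median log2 fold change of the list was -4.36, and the table was selected on these libraries. All 13 were lower in every russeted than in any waxy variety, as 24.3% of all listed genes were. The wax genes took several orders within phenotypes. Reinette Parmentier was the highest russeted variety in 8 of the 13, against 27.3% of all listed genes, and Patte de Loup in 3. In waxy exocarp AF42 was highest in 7 and AG94, where MYB94 peaked, in 6. The MYB94 order was shared by 3 of the 13 within russeted and 5 within waxy varieties, against 21.7% and 18.3% of all listed genes. The russeted order rests on Reinette Parmentier and Patte de Loup, which on unique reads stood the other way round, at 4.59 and 4.35 RPKM.

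Some genes of the cuticle followed MYB94 closely. GPAT6 (MDP0000479163), the acyltransferase of cutin precursors and the only gene of the cutin list in the table, stood at 238, 249 and 158 RPKM in AG94, AF42 and Gala and at 20.6, 18.8 and 4.67 RPKM in Patte de Loup, Reinette Parmentier and St Edmund's Pippin. The ratio of its level to that of MYB94 stayed between 3.84 and 8.39 while MYB94 itself ranged 52.6-fold. That span, too, includes the difference between phenotypes on which the genes were selected. Within the russeted varieties MYB94 ranged 5.01-fold. Within the waxy varieties it ranged 2.74-fold, and there GPAT6 was highest in AF42 and MYB94 in AG94. GPAT6 was the third nearest gene to MYB94 over the 6 varieties (RMS 0.45), after CAD9 (MDP0000037251, 0.42), a cinnamyl alcohol dehydrogenase gene, and an F-box gene (MDP0000206144, 0.42). Centred within each phenotype, KCS2 (RMS 0.28) and GPAT6 (0.29) lay among the nearest 1% of the compared genes. The synthase gene KCS6 (MDP0000392495, 0.57) lay among the nearest 10%. The elongation cycle genes PAS2 (MDP0000337353, 0.41) and CER10 (MDP0000062802, 0.55) stood as near as that, but with 39.6% and 33.8% unique reads they were not among the compared genes, and their likeness rests on shared reads. The other CER10 copy (MDP0000555908), named beside the first, was highest of the russeted varieties in St Edmund's Pippin, where MYB94 was lowest. It had 4.23 RPKM there, 2.62 RPKM in Reinette Parmentier and 3.39 RPKM in Patte de Loup, with 35.9% unique reads.

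Other wax genes did not follow it in that comparison. With a median RMS of 0.90 within phenotypes, the wax list lay little nearer to MYB94 than the compared genes did (0.95), and 4 of its 13 genes, PAS2 and the CER10 copy MDP0000062802 included, stood as near as the nearest 10%. KCS10 (MDP0000235280), which elongates cuticular fatty acids, had 0.16 RPKM in St Edmund's Pippin, 5.65 RPKM in Reinette Parmentier and 0.69 RPKM in Patte de Loup, where the MYB94 level was about that of Reinette Parmentier. The alkane gene CER3 (MDP0000165547), picked out after its values were seen, had 187, 293 and 50.5 RPKM in the same varieties, so Patte de Loup had the lowest and not the highest level. Both WSD1-like genes of wax ester synthesis were also highest, of the russeted varieties, in Reinette Parmentier, at 6.49 RPKM (MDP0000701887) and 2.00 RPKM (MDP0000195926), against 0.65 and 0.92 RPKM in Patte de Loup. In Arabidopsis, WSD1, KCS2 and CER10 are known targets of MYB94. Both WSD1-like genes here were matched to other Arabidopsis genes, AT3G49190 and AT5G53390, and not to WSD1 itself. KCS2 and the CER10 copy MDP0000062802 were among the genes near to MYB94 above.

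**Figure D3:**
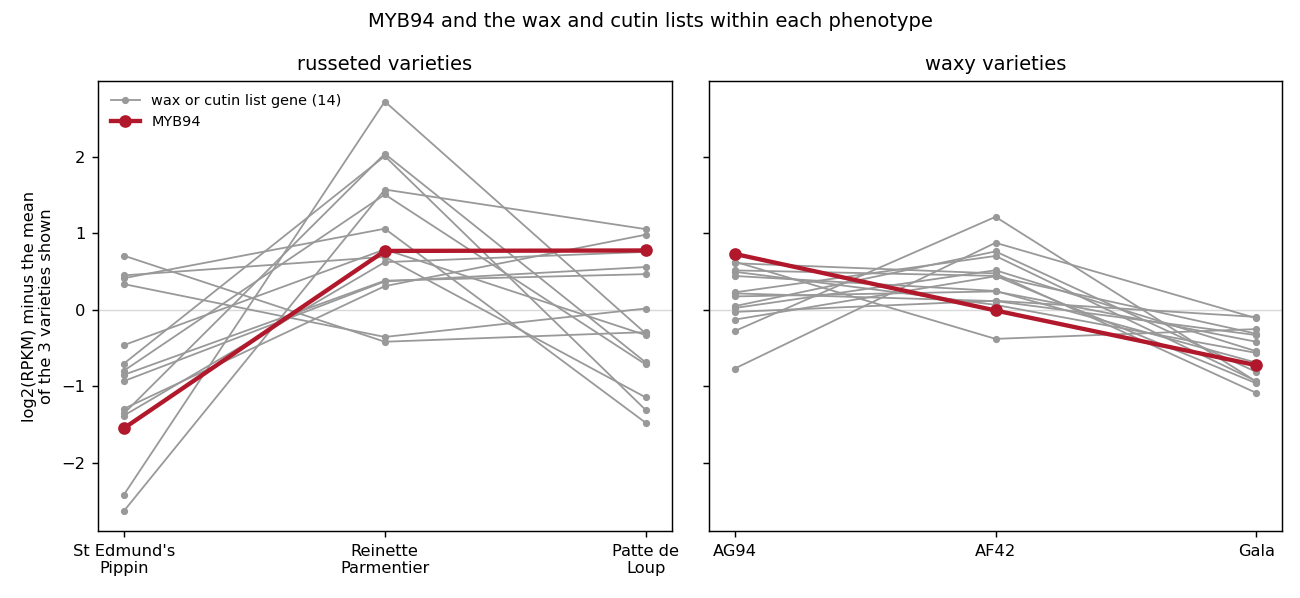
Log2(RPKM) of MYB94 (coloured) and of the 13 wax and 1 cutin list genes (grey) in each variety, minus the gene's mean over the 3 varieties of that phenotype; lines join the values of a gene and the varieties have no natural order. In the russeted varieties many wax genes peak in Reinette Parmentier, while MYB94 stands at 4.89 RPKM there and 4.91 RPKM in Patte de Loup.

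MYB42 was the most abundant member in waxy exocarp, at 120 RPKM in AG94, 76.8 RPKM in AF42 and 127 RPKM in Gala. In the russeted varieties it stood at 11.2 RPKM in Patte de Loup, 30.9 RPKM in Reinette Parmentier and 12.03 RPKM in St Edmund's Pippin. Reinette Parmentier stood above the other 2 russeted varieties, whose counting intervals overlapped, and AF42 below the other 2 waxy ones, whose intervals overlapped as well. The russeted mean was 18.0 ± 11.2 RPKM and the waxy mean 108 ± 27.3 RPKM (SD, n = 3), the log2 fold change was -2.58 ± 0.56 (SE), and 98.8% of the reads were unique.

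The lignin genes set beside MYB42 went both ways. Of 11 listed, 10 were tested, and 5 rose and 2 fell in russeted exocarp, against 19.2% and 9.31% of all genes; with TMM factors 1 rose and 2 fell. With Patte de Loup left out, 3 rose; 1 fell when AG94 or any 1 of the russeted varieties was left out. The 5 that rose were copies of the laccases LAC14 (2) and LAC15 (2), which couple phenolic units, and the methyltransferase gene OMT1. The 2 that fell were CAD9 and CAD4, which make monolignols. CCR1 (MDP0000322755), the reductase that commits phenolics to lignin, was the list gene nearest to MYB42 (RMS 0.77), at 1058, 469 and 815 RPKM in AG94, AF42 and Gala and 321, 471 and 117 RPKM in Patte de Loup, Reinette Parmentier and St Edmund's Pippin. Its phenotypes overlapped (log2 fold change -1.36 ± 0.69, edgeR adjusted p = 0.385). Of the 11, 0 shared the russeted order of MYB42 and 1 its waxy order, against 9.68% and 12.5% of all listed genes. With profiles centred within each phenotype, 1 of the 11 stood as near to MYB42 as the nearest 10% of the compared genes. The secondary wall polysaccharide list, also set beside MYB42, had 2 of 2 genes that near, CESA6 (RMS 0.39) and CCR1 (0.48). Neither shared an order of varieties with MYB42, and CESA6 hardly varied in the waxy varieties (3.73 to 3.79 RPKM). Nearest to MYB42 over all compared genes were NAP14 (MDP0000219021, RMS 0.32), an ABC protein gene, a mannose-binding lectin gene (MDP0000817734, 0.39) and ORC3 (MDP0000220571, 0.40), a subunit of the complex that starts DNA replication. Among the 3 nearest, 2 of these stayed on unique reads, 1 with log2(RPKM + 1) and 1 when centred within each phenotype.

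MYB68 was low everywhere. It stood at 1.21, 0.24 and 1.23 RPKM in Patte de Loup, Reinette Parmentier and St Edmund's Pippin, from 9, 2 and 6 reads, and at 2.90, 3.97 and 3.68 RPKM in AG94, AF42 and Gala, from 21, 18 and 15 reads. Although the phenotypes did not overlap, the counting intervals of all neighbours in the order did. The order of the varieties within each phenotype is not known at this depth. The log2 fold change was -2.00 ± 0.55 (SE). The gene model is the shortest of the members, with 432 coding bases, and was the only member for which the table gave no MYB domain. Its nearest genes were an RNA-binding KH domain gene (MDP0000120063, RMS 0.26), the homeobox gene HAT14 (MDP0000222305, 0.43) and the NAC gene NAP (MDP0000655623, 0.46), a regulator of leaf senescence in Arabidopsis.

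Over the whole profile the members lay nearest to members of their own direction, which had chosen them. Centred within each phenotype, the MYB93 copies stood at an RMS of 0.32 from each other, and from MYB94 copy 1 stood at 0.64, with 9.30% of the compared genes nearer, and copy 2 at 0.34, with 1.13% nearer. Both MYB93 copies and MYB94 had Gala under AF42 under AG94, and St Edmund's Pippin lowest of the russeted varieties. In both MYB93 copies, however, the counting intervals of Gala and AF42 overlapped, and in copy 2 those of AF42 and AG94 did too. On unique reads, 1 each in AF42 and Gala, copy 2 had AF42 lowest. The likeness of copy 2 to MYB94 rests mostly on shared reads, as 19.6% of its reads were unique. Between phenotypes the MYB93 copies and MYB94 lay on opposite sides. MYB52 lay nearest to MYB67 among the members (0.68), and MYB42 and MYB68 were 1.30 apart, farther than 95.1% of the compared genes were from MYB42.

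**Figure D4:**
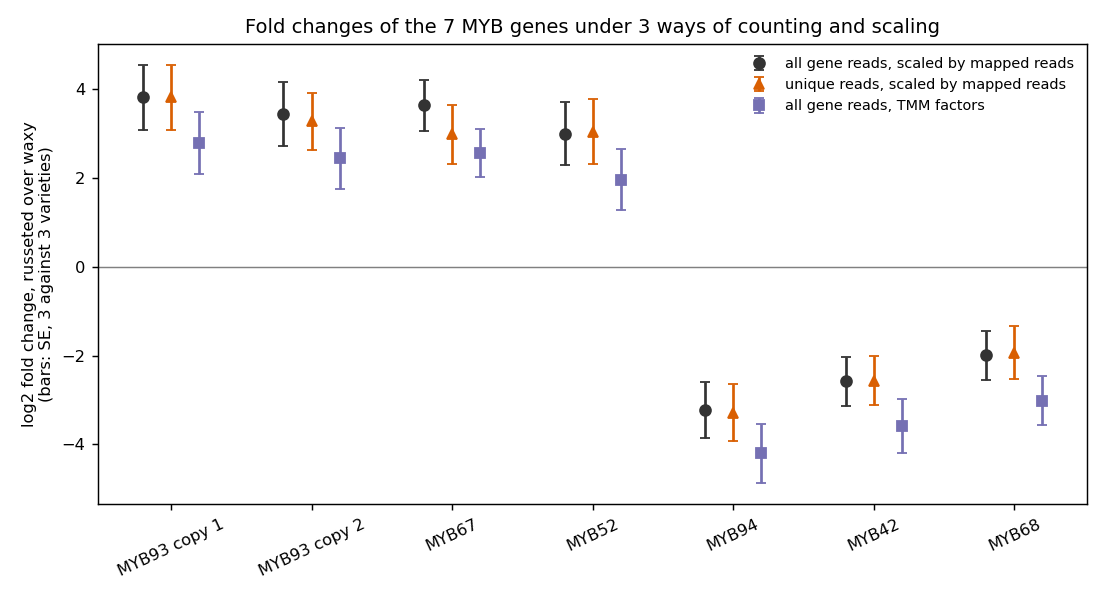
Log2 fold change of each member, russeted over waxy, with its SE (3 against 3 varieties) from edgeR, for all gene reads and for unique reads scaled by mapped reads, and for all gene reads with TMM factors. The direction of each of the 7 genes is the same in all 3, and TMM factors lower every value by about the same amount.

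The table held 8 further genes named MYB or myb-like. Of these, 3 rose in russeted exocarp (against 19.2% of all genes tested), 0 fell and 5 did not pass, with a median log2 fold change of 1.87. With TMM factors 0 passed, as when Gala, Patte de Loup or Reinette Parmentier was left out, and 1 passed with the replicate number as a block. By the size of the fold the first was MYB84, also named RAX3 (MDP0000322479), a regulator of branching in Arabidopsis, with 7.71, 7.05 and 7.75 RPKM in Patte de Loup, Reinette Parmentier and St Edmund's Pippin and 1.26, 2.34 and 0.65 RPKM in AG94, AF42 and Gala (log2 fold change 2.397 ± 0.58, edgeR adjusted p = 0.0222). It was followed by the other MYB52 gene, a myb-like gene (MDP0000758053, 1.94 ± 0.64, adjusted p = 0.0995) and MYB66 (MDP0000124555, 1.87 ± 0.53, adjusted p = 0.0492), known as WEREWOLF for its part in root hair patterning. MYB66 had 28.0, 24.8 and 13.8 RPKM in the russeted varieties in the same order and 5.42, 4.82 and 8.04 RPKM in the waxy ones. All 8 log2 fold changes lay above 0, as 73.8% of all genes tested did, and the lowest was 0.96.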

How the data were processed

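Poly(A) RNA of 6 exocarp samples, 1 per variety, was sequenced from TruSeq libraries, per the labels' protocols. The authors deposited counts (total and unique gene reads), RPKM and phenotype means per the file headers; the submitters' processing notes name CLC Genomics Workbench 6.5. What genome build was mapped to is not given in the sources used here. Their signed fold (a score), its log2, p-value and false discovery rate were deposited too, and were used here only to recover the number of genes, 6449, over which the authors adjusted. The deposited gene length, a multiple of 3 in all 1261 genes, is a coding length.

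Mapped reads were recovered from reads, length and RPKM of genes with at least 200 reads. The main test was the two-sided quasi-likelihood test of edgeR 4.0.16 (R 4.3.3) on total gene reads with these library sizes after its low-count filter (1246 genes kept), with Benjamini-Hochberg adjustment over 6449 genes and a threshold of 0.05. The SE is the log2 fold change divided by the square root of F. The fit was tested on simulated data. DESeq2 1.42.0, TMM factors, unique reads, no filter, a replicate block and leaving out each variety were alternatives. Named genes are the members, the 3 genes nearest to each by RMS of log2(RPKM), the 4 other MYB genes of largest fold, and genes of 6 lists of likely targets set by Arabidopsis match or description (of the wax list, the 6 nearest and the 4 of largest fold). For each member, the order of the varieties was compared with that of the listed genes. Same-numbered samples were not paired by the labels. With 1 library a variety, p-values measure the spread between varieties. The kit does not mark strand, so reads of antisense partners cannot be told apart.

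The members, the lists and the tests were chosen with earlier results of these data known. Genes are named by the Arabidopsis match in the table. Gene identifiers matched 0 entries of the RefSeq gene table, so no positions or sequences are given.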

Additional observations from a re-analysis of the deposited data

How the results depend on the processing

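The sign of the fold was the same for all 7 members under every alternative fitted. Over these the log2 fold change ran from 2.76 to 4.86 in MYB93 copy 1, 2.41 to 4.22 in copy 2, 2.53 to 3.86 in MYB67, 1.93 to 4.14 in MYB52, -4.23 to -2.78 in MYB94, -3.61 to -2.33 in MYB42 and -3.09 to -1.50 in MYB68. TMM factors, which assume that most listed genes do not differ, moved the median log2 fold change of all tested genes from 1.19 to 0.20.

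Of all tested genes 239 were higher and 116 lower; with TMM factors these were 44 and 296, with DESeq2 111 and 322, and adjusted over the listed genes alone 597 and 290. Leaving out 1 variety gave 134 to 194 higher and 67 to 105 lower. In the suberin list 8 were higher and 0 lower; TMM factors gave 2 and 1, and DESeq2 and the adjustment over the listed genes gave 1 lower. In the lignin list 5 were higher and 2 lower, with TMM factors 1 higher and with DESeq2 3. In the pectin list 1 was higher, with TMM factors and DESeq2 0, on unique reads 2 and adjusted over the listed genes 7; DESeq2 called 1 pectin gene and 1 gene of the secondary wall polysaccharide list lower. Leaving out 1 variety gave 5 to 8 higher suberin genes, 3 to 6 higher and 1 to 2 lower lignin genes, and 0 to 1 higher pectin genes. On unique reads 2 and not 7 suberin genes shared the waxy order of MYB93 copy 2, which has 1 unique read each in AF42 and Gala. With log2(RPKM + 1), 1 of the 3 nearest genes was shared with log2(RPKM) for MYB93 copy 1 and 1 for MYB94; centred within phenotypes, a choice added after seeing the data, 0 were shared for MYB94. The cause of these moves was not tested.

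With the replicate number as a block, 209 genes were higher and 110 lower, and 7 members passed. The numbers do not pair the varieties: deviations of same-numbered varieties from their phenotype means correlated across genes at -0.077, -0.0036 and -0.075. Depth limits MYB68 (71 reads in all) and the low phenotype of MYB93 and MYB52.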

Other observations

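The MYB DNA-binding domain (PF00249) was annotated in 19 listed genes, 6 of which are not named as MYB genes. All 6 had a log2 fold change above 0, as 73.8% of all genes tested did. Of the 6, 1 passed the test as higher in russeted exocarp (against 19.2% of all genes tested) and 0 fell. The gene that passed was RVE7 (MDP0000795432), a clock-related relative of the MYB family, at 11.9, 4.36 and 12.8 RPKM in Patte de Loup, Reinette Parmentier and St Edmund's Pippin and 1.46, 1.24 and 1.38 RPKM in AG94, AF42 and Gala (log2 fold change 2.82 ± 0.59, edgeR adjusted p = 0.0117). Of its russeted varieties Reinette Parmentier was lowest, whereas in both MYB93 copies St Edmund's Pippin was. These genes were chosen after their values were seen.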
